A study of Mus musculus with 3 samples.

Results

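The 10 genes described here are parts of the bone morphogenetic protein (BMP) pathway: the ligand genes Bmp2, Bmp4, Bmp5 and Bmp6, the extracellular regulator Bmper, the receptor genes Bmpr1a, Bmpr2 and Acvrl1, and the inhibitory Smad genes Smad6 and Smad7. They were taken by name from the 36167 features of the count tables. No measured value enters that rule, but the set was put together with earlier results of these data known. RNA was counted in single nuclei of frozen aortic valve structures from mouse pups at postnatal day 1, in 3 pools that form 1 group, each made from 22 to 24 aortic roots. All pools carry the Scx<tm1.1(EGFP)Skom allele on a B6.Cg background, in which EGFP is placed at the tendon and valve gene Scx. Whether pups carried 1 or both copies, and which pups went into which pool, is not given. With 1 group, each comparison was made between classes of nuclei within the pools, and every p-value measures the spread over these 3 pools.

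BMP ligands are secreted dimers that bring type II receptors such as Bmpr2 together with type I receptors such as Bmpr1a, which then phosphorylate Smad1, Smad5 and Smad9. These enter the nucleus with Smad4 and switch on targets such as the Id genes, and also Smad6 and Smad7, which block the receptors and so limit the signal. In the developing heart, BMP ligands are known for their part in the formation of the endocardial cushions from which the valves arise, and Acvrl1 is known as the endothelial type I receptor for circulating BMP ligands.

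The rule for nuclei, at least 1000 UMIs and at most 5% mitochondrial UMIs, was met by 14073 of 21140 deposited nuclei. After removal of likely doublets, 6473, 3098 and 3611 nuclei remained in pools 1, 2 and 3, with a median of 4283, 4756 and 3340 UMIs. Between 16 and 33 cell barcodes were shared by a pair of pools. Clusters were named from marker genes, and the 10 classes that reached 20 nuclei in all 3 pools were compared: smooth muscle-like (2927 nuclei), endothelial-like (2729), cardiomyocyte-like (2662), valve interstitial-like (1486), fibroblast-like (1078), mesothelial-like (366), macrophage-like (261), pericyte-like (127), lymphatic endothelial-like (117) and erythroid-like (73). The summed level of 10 valve interstitial markers was 2842 to 3416 CPM (counts per 1000000) in the valve interstitial-like class. That class was named from the same markers, so the sum describes it and is no separate check of the tissue. A level in CPM is the gene's UMIs divided by all UMIs of the nuclei of a class in a pool and scaled to 1000000, and is compared only within a gene, never between genes. The order of classes is that of their mean CPM. The log2 differences come from fits that also rescale the libraries (TMM), so they are not ratios of the CPM shown.

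Promoter sequences of 7 of the 10 genes were matched by symbol in RefSeq's table for GRCm38.p6, and none was matched for Bmp2, Acvrl1 and Smad7. The 250 bases before the start of the 4 genes on which the results below turn most are printed in the direction of transcription, to show what these windows share: Bmp4 (chr14:46390670-46390919, minus strand), Bmp6 (chr13:38345466-38345715, plus strand), Bmper (chr9:23222826-23223075, plus strand) and Smad6 (chr9:64022060-64022309, minus strand). Capitals mark matches to the Smad-type motifs GGCGCC and CAGAC and to the ETS-type motif CCGGAA, searched on both strands.
Bmp4: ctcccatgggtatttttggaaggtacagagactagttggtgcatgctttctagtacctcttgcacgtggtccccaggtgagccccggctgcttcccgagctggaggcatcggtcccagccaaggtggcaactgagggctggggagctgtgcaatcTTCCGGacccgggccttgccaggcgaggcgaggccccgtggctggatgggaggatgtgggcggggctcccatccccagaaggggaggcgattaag
Bmp6: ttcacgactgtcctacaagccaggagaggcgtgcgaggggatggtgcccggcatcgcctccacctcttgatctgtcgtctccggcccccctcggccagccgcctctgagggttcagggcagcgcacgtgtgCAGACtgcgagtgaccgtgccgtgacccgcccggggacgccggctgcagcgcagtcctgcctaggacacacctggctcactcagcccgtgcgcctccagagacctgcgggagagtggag
Bmper: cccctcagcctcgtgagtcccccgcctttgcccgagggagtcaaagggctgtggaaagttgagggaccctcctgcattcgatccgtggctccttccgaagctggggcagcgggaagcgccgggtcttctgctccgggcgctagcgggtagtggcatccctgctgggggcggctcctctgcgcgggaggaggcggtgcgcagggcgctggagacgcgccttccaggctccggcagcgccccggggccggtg
Smad6: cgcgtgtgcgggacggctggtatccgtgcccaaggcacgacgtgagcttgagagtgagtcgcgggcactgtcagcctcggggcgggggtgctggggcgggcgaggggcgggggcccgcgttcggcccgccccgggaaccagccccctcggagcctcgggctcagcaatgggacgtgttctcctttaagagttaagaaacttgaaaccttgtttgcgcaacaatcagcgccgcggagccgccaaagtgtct

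These windows were rich in G and C, at 63.2% in Bmp4, 68.8% in Bmp6, 71.6% in Bmper and 66.8% in Smad6. CCGGAA was found once in the Bmp4 window, on the opposite strand at 95 bases before the start, and in 12.1% of 32536 mouse promoters of the same length. CAGAC was found at 119 bases before the start of Bmp6 and at 134 bases before that of Bmp5, and in 42.2% of all promoters. GGCGCC was found in the windows of Bmpr1a and Bmpr2, at 198 and 105 bases before the start, and in 9.65% of all promoters. The Bmper and Smad6 windows held none of the 3 motifs. A match is a run of letters and does not show a bound site.

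The endothelial-like and valve interstitial-like classes held most of the high levels of these genes. Each class was tested against the mean of the log2 levels of the other classes with edgeR's quasi-likelihood test over 13974 genes, and a gene is called at a Benjamini-Hochberg adjusted p under 0.05. None of the 10 genes was removed for low counts. In the endothelial-like class 7 of the 10 were higher and 1 was lower, against 29.4% of all genes called (22.7% higher and 6.69% lower), and their median log2 difference was 1.21 against 0.26 for all genes. In the valve interstitial-like class 6 were higher and 1 was lower, against 27.7% of all genes called (20.4% higher and 7.33% lower), with a median of 1.23 against 0.25. The cardiomyocyte-like class differed in the other direction, with 3 higher and 5 lower, against 41.3% of all genes called (29.2% higher and 12.1% lower) and a median of -0.37 against 0.25. Bmp5, which had no UMI in 2 of the classes that enter the mean, is among the genes called higher in the latter 2 classes. Without it 8, 6 and 7 members were called in these 3 classes, with medians of 1.43, 1.06 and -0.46.

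In the smooth muscle-like class 4 of the 10 genes were higher, against 34.3% of all genes called (25.8% higher and 8.55% lower), which is near the background. The fibroblast-like class had 2 higher, against 23.4% of all genes called (18.3% higher and 5.09% lower). The mesothelial-like class had 3 higher and 3 lower against 45.6% (31.2% higher and 14.4% lower), and the pericyte-like class 2 higher and 1 lower against 10.2% (8.59% higher and 1.63% lower). The erythroid-like class had 1 lower, against 7.28% of all genes called and 5.56% called lower. In the macrophage-like class edgeR called 0 of the 10, with 0 at an unadjusted p under 0.05, against 23.4% of all genes called. There DESeq2 called 1 lower, and edgeR called 5 lower with at most 1% mitochondrial UMIs, 1 lower without the erythroid-like class and 1 higher at a clustering resolution of 0.5. With at most 1% mitochondrial UMIs the erythroid-like, lymphatic endothelial-like, mesothelial-like and pericyte-like classes could not be tested and left the mean of the others. Results in that setting, here and below, therefore differ in the nuclei and in the classes compared. In the lymphatic endothelial-like class 5 of the 10 genes were lower, against 18.2% of all genes called in either direction and 5.38% called lower. Of 100 differences 44 were called. Of the 29 called in the 5 largest classes, 19 were also called in each of the 15 alternatives run for those classes. Fewer alternatives could be run for the smaller classes, and no called difference changed sign in the alternatives run for it. The median of all genes in the 5 largest classes lay between 0.25 and 0.28 log2 here and between -0.10 and 0.08 with DESeq2, so a difference of that size in a single gene is no more than the scale's own offset. The direction of the counts depended on which classes entered the mean. With the 5 largest classes alone, 2 members were higher and 5 lower in the smooth muscle-like class, 2 higher and 6 lower in the fibroblast-like class, 3 higher and 7 lower in the cardiomyocyte-like class, 7 higher and 3 lower in the endothelial-like class and 6 higher and 2 lower in the valve interstitial-like class.

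**Figure D1:**
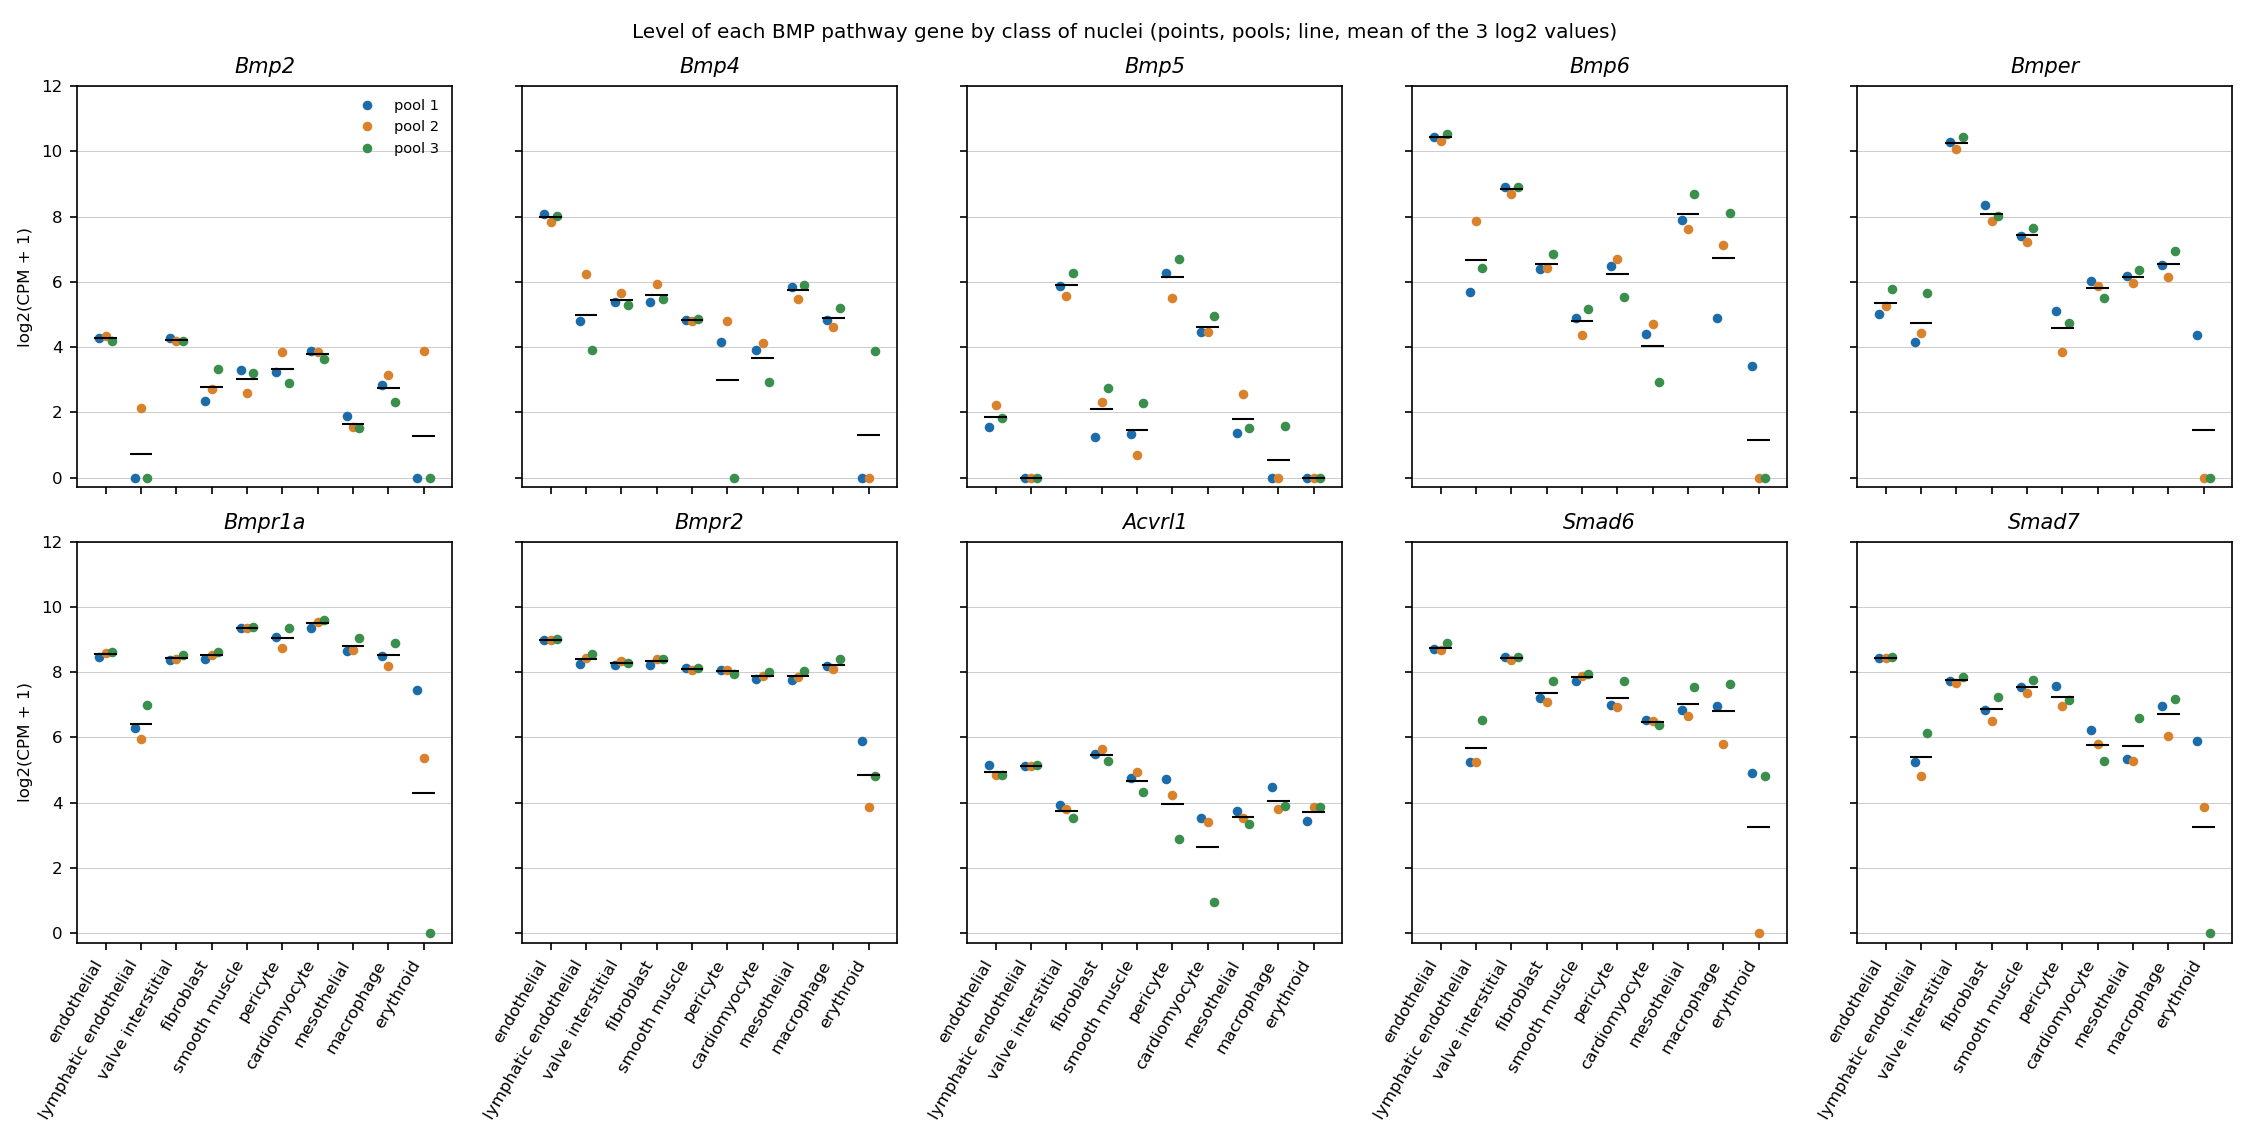
Level of each of the 10 genes as log2(CPM + 1) on the vertical axis in 10 classes of nuclei on the horizontal axis, with 1 point per pool and a line at the mean of the 3 log2 values. Bmp4 and Bmp6 are highest in the endothelial-like class in all 3 pools, Bmper in the valve interstitial-like class, and the erythroid-like points rest on few UMIs.

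**Figure D2:**
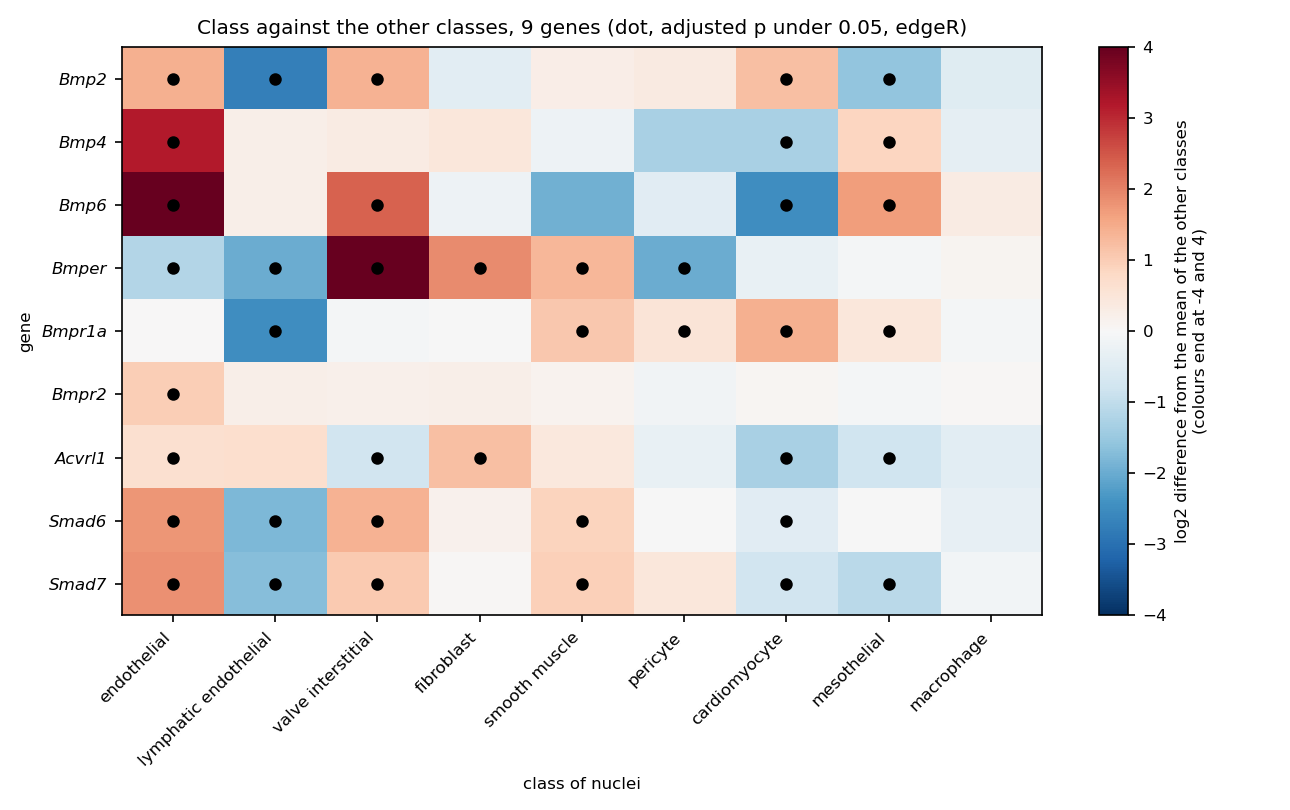
Log2 difference of each class (columns) from the mean of the other classes for 9 genes (rows), with a dot where the edgeR adjusted p is under 0.05. Red is higher and blue is lower; the colours end at -4 and 4, which the differences of 4.12 for Bmp6 (endothelial-like) and 4.34 for Bmper (valve interstitial-like) pass, and Bmp5 is left out because its UMI count is 0 in 2 classes.

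Bmp6, a ligand known also for its part in iron balance in the liver endothelium, had its highest level in endothelial-like nuclei. Its level was 1399, 1280.3 and 1467 CPM in the endothelial-like nuclei of pools 1, 2 and 3, and 479, 408 and 480.3 CPM in the valve interstitial-like nuclei. The lowest endothelial-like pool was above the highest pool of every other class. The endothelial-like class exceeded the mean of the other classes by 4.12 log2 units (SE 0.22, edgeR adjusted p = 6.75e-18). It exceeded the valve interstitial-like class, next in order, by 1.59 log2 units (SE 0.32, edgeR adjusted p = 0.000119). Between this pair of classes 36.2% of all genes were called.

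Bmp6 was also higher in the valve interstitial-like class than in the mean of the others, by 2.36 log2 units (SE 0.26, edgeR adjusted p = 3.86e-09). The summed level of 10 endothelial markers was 657, 650 and 647 CPM in that class, and its part in this Bmp6 level was not tested. The mesothelial-like class, with 236, 197 and 408 CPM, stood 1.67 log2 units above the mean of the others (SE 0.30, edgeR adjusted p = 1.42e-05) and was not separated from the valve interstitial-like class (edgeR adjusted p = 0.113). Its summed level of 10 endothelial markers was 730.3, 789.6 and 1292.5 CPM, so that pool 3 was highest in both while pools 1 and 2 were in opposite order, and the part of endothelial RNA in this level was not tested. In the macrophage-like class Bmp6 was at 28.9, 139.6 and 276 CPM beside marker sums of 488, 507 and 1072 CPM, whose part was not tested either. Lowest among the larger classes were the smooth muscle-like nuclei, at 28.8, 19.6 and 34.8 CPM, and the cardiomyocyte-like nuclei, at 20.2, 25.2 and 6.7 CPM. The cardiomyocyte-like difference was called (-2.48, SE 0.95, edgeR adjusted p = 0.0328). The erythroid-like class, which enters the mean behind each Bmp6 difference from the other classes, held 1 Bmp6 UMI, in pool 1. Without pool 1 it had none, and the cardiomyocyte-like difference was not called, in a fit that leaves its size undetermined (-1.92, SE 1921537).

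Of all 26585 Bmp6 UMIs, 74.7% were in endothelial-like nuclei, which made up 20.7% of the nuclei and 20.6% of all UMIs. With every nucleus thinned to 1000 UMIs, at least 1 Bmp6 UMI was found in 50.2% ± 2.25 of endothelial-like nuclei (SD, n = 3 pools) and in 28.0% ± 1.82 of valve interstitial-like nuclei. Unthinned, these shares were 68.7% and 50.8%, at median depths of 4450 and 3593 UMIs. In a cardiomyocyte-like cluster of 1587 nuclei, given as a low reference because it is among the lowest in Bmp6, the thinned share was 0.443% ± 0.0557 and the unthinned one 2.35%, at a median of 5510 UMIs. The part of free RNA in these shares was not tested.

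Bmp4, the ligand known for outflow tract and cushion development, was higher in the endothelial-like class than in any other in all 3 pools. Its level there was 269, 225 and 258 CPM, and the next class, the mesothelial-like one, held 56.0, 43.6 and 58.8 CPM. The groups did not overlap, and the pair differed by 2.09 log2 units (edgeR adjusted p = 6.21e-11), in a contrast that called 53.2% of all genes. Against the mean of the other classes the endothelial-like difference was 3.17 (SE 0.15, edgeR adjusted p = 1.1e-19). Endothelial-like nuclei held 65.7% of 5576 Bmp4 UMIs, and 19.2% ± 2.64 of them had a Bmp4 UMI at 1000 UMIs, or 43.1% unthinned. In the cardiomyocyte-like cluster named above the thinned share was 0.127% ± 0.221, from 2 nuclei, and the unthinned one 1.34%.

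Fibroblast-like, valve interstitial-like and smooth muscle-like nuclei had Bmp4 levels of 40.2 to 59.8, 37.8 to 49.1 and 26.5 to 27.9 CPM. The mesothelial-like class was called higher than the mean of the others (0.86 log2 units, SE 0.24, edgeR adjusted p = 0.00302), a call that was lost without pool 1 (0.62, edgeR adjusted p = 0.208). The cardiomyocyte-like class was called lower, at 14.1, 16.5 and 6.7 CPM (-1.29, SE 0.43, edgeR adjusted p = 0.0156). Without pool 3 that difference was -0.32 and no longer called (edgeR adjusted p = 1).

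Bmp2, a ligand closely related to Bmp4 and known for its part in cushion mesenchyme formation, was sparse, with 790 UMIs in all nuclei. It was at 18.2, 19.3 and 17.2 CPM in the endothelial-like class, at 18.6, 17.2 and 17.4 CPM in the valve interstitial-like class and at 13.6, 13.3 and 11.5 CPM in the cardiomyocyte-like class. The first pair overlapped, and no neighbours in the order of Bmp2 levels differed past the threshold. Each of these classes was higher than the mean of the others, by 1.43 (SE 0.21, edgeR adjusted p = 1.01e-06), 1.40 (SE 0.25, edgeR adjusted p = 2.45e-05) and 1.19 log2 units (SE 0.23, edgeR adjusted p = 4.05e-05). A single Bmp2 UMI was counted in each of the erythroid-like and lymphatic endothelial-like classes, both in pool 2, and without that pool the 3 differences were 2.74, 2.78 and 2.51. The cardiomyocyte-like call was lost with at most 1% mitochondrial UMIs, where fewer classes entered the mean (0.12, edgeR adjusted p = 0.727). Towards the low end were mesothelial-like nuclei, at 1.84 to 2.72 CPM (-1.58, SE 0.48, edgeR adjusted p = 0.006). Without pool 2 that call was lost (-0.12, edgeR adjusted p = 1). As described below, the Bmp2 levels of whole classes were means over clusters that differed widely.

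Bmp5, a ligand of the Bmp6 and Bmp7 subfamily, had another distribution, with 1006 UMIs of which 33.9% were in valve interstitial-like and 32.5% in cardiomyocyte-like nuclei. It was at 75.9, 44.5 and 103 CPM in the pericyte-like class, at 57.8, 46.7 and 75.5 CPM in the valve interstitial-like class and at 21.0, 20.9 and 29.98 CPM in the cardiomyocyte-like class. The pericyte-like values, which come from 44 UMIs, spanned the valve interstitial-like ones (edgeR adjusted p = 0.704). The valve interstitial-like class exceeded the cardiomyocyte-like class by 1.05 log2 units (edgeR adjusted p = 2.54e-05), and all pools of both were above every pool of the fibroblast-like, mesothelial-like, endothelial-like and smooth muscle-like classes, which held 0.632 to 5.72 CPM. The valve interstitial-like class exceeded the endothelial-like one by 4.43 log2 units (SE 0.26, edgeR adjusted p = 2.37e-15). No Bmp5 UMI was counted in lymphatic endothelial-like nuclei, where 3 counts would be 4.10 CPM over the 3 pools. The erythroid-like class had none either, and there the same floor was 12.05 CPM, so no size of a difference from the mean of the other classes is given. That contrast called Bmp5 higher in the valve interstitial-like, cardiomyocyte-like and pericyte-like classes, and these calls are in the counts above.

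Bmper, a secreted chordin-like protein that binds BMPs and can restrain or promote their signal, was led by valve interstitial-like nuclei. Its level there was 1252, 1067 and 1372 CPM, and 51.4% of its 13883 UMIs came from this class, which made up 11.3% of the nuclei. Fibroblast-like nuclei followed with 329, 229.9 and 259 CPM, and smooth muscle-like nuclei with 169, 147 and 198 CPM. All 3 valve interstitial-like pools were more than the highest pool of any other class. The valve interstitial-like class exceeded the mean of the others by 4.34 log2 units (SE 0.12, edgeR adjusted p = 1.16e-25) and the fibroblast-like class by 2.19 (edgeR adjusted p = 3.04e-12, where 14.6% of all genes were called). Fibroblast-like nuclei in turn exceeded smooth muscle-like ones by 0.53 log2 units (edgeR adjusted p = 0.02).

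Against the mean of the others, Bmper was higher in the fibroblast-like class by 1.90 log2 units (SE 0.15, edgeR adjusted p = 1.02e-12). The erythroid-like class, which enters that mean, held 2 Bmper UMIs, both in pool 1, so without pool 1 it had none. In that setting the fibroblast-like difference was 2.60 and the smooth muscle-like one 2.21. With all pools the smooth muscle-like difference was 1.32 (SE 0.16, edgeR adjusted p = 1.36e-08), and it was no longer called with the 5 largest classes alone (0.09, edgeR adjusted p = 0.585) or with at most 1% mitochondrial UMIs (0.18, edgeR adjusted p = 0.492). Fewer classes entered the mean in both of these settings. The endothelial-like class, at 31.5, 37.1 and 53.7 CPM, was called lower (-1.16, SE 0.27, edgeR adjusted p = 0.0007). Without pool 1, and so with no erythroid-like UMI, the difference was -0.11 with an SE of 1.46 and not called. The lymphatic endothelial-like and pericyte-like classes were called lower as well, by -1.98 (edgeR adjusted p = 0.000213) and -1.997 log2 units (edgeR adjusted p = 0.000531). In the same setting without pool 1 both calls were lost (-0.80, SE 92.0, and -1.51, SE 2143), in fits that leave the size undetermined. The former was also lost with doublets kept (-0.74, edgeR adjusted p = 0.0757) and the latter at a clustering resolution of 0.5 (-0.90, edgeR adjusted p = 0.0555). At 1000 UMIs, 55.2% ± 0.789 of valve interstitial-like nuclei and 19.2% ± 0.795 of fibroblast-like nuclei had a Bmper UMI (78.4% and 37.4% unthinned, at medians of 3593 and 3775 UMIs). The share was 1.13% ± 0.983 in the endothelial-like Grid1 Col23a1 cluster (4.45% unthinned, at a median of 4101 UMIs).

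Bmpr1a, the type I receptor through which Bmp2 and Bmp4 chiefly signal, was counted in every class and was led by muscle. Cardiomyocyte-like nuclei held 651, 748 and 782 CPM and smooth muscle-like nuclei 647, 648 and 675 CPM. These ranges overlapped, while the endothelial-like (355 to 390.2 CPM), fibroblast-like (339 to 390.3 CPM) and valve interstitial-like pools (329 to 369 CPM) all lay below them. The differences from the mean of the others were 1.41 (SE 0.13, edgeR adjusted p = 1.64e-11) in the cardiomyocyte-like and 1.08 log2 units (SE 0.14, edgeR adjusted p = 4.82e-08) in the smooth muscle-like class. Lymphatic endothelial-like nuclei had 77.9, 61.1 and 126 CPM, and were lower than the valve interstitial-like class, their upper neighbour, by 2.14 log2 units (edgeR adjusted p = 4.84e-08). Against the mean of the others that class differed by -2.47 (SE 0.24, edgeR adjusted p = 1.89e-10). Smaller positive differences in the mesothelial-like (0.46, edgeR adjusted p = 0.00971) and pericyte-like classes (0.53, edgeR adjusted p = 0.0359) were lost without pool 2 (0.43 and 0.61, edgeR adjusted p = 0.0921 and 0.117), and the pericyte-like one also without pool 1 (0.73, edgeR adjusted p = 0.0517) or pool 3 (0.47, edgeR adjusted p = 0.245). Without the lymphatic endothelial-like class they shrank to 0.24 (edgeR adjusted p = 0.269) and 0.29 (edgeR adjusted p = 0.441), and both were lost without the replicate block (edgeR adjusted p = 0.0569 and 0.124). The mesothelial-like one was also lost with RLE factors (0.31, edgeR adjusted p = 0.078) and the pericyte-like one with doublets kept (0.44, edgeR adjusted p = 0.0808).

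Bmpr2, the BMP type II receptor known from inherited pulmonary arterial hypertension, was highest in the endothelial-like class. Endothelial-like nuclei held 511, 502 and 522 CPM, above the 302, 346 and 378 CPM of the lymphatic endothelial-like class, which came next. The pair differed by 0.67 log2 units (edgeR adjusted p = 0.00153, where 14.3% of all genes were called). The endothelial-like difference from the mean of the others was 0.99 (SE 0.10, edgeR adjusted p = 3.41e-10). From fibroblast-like down to mesothelial-like nuclei, levels ran from 341 to 217 CPM with no neighbours separated by the test. Erythroid-like nuclei, at 58.7, 13.6 and 27.4 CPM from 9 UMIs, were called lower (-1.69, SE 0.35, edgeR adjusted p = 0.00166). That call was lost without pool 2 (-1.42, edgeR adjusted p = 0.0687) or pool 3 (-1.72, edgeR adjusted p = 0.119) and with DESeq2 (-1.37, adjusted p = 0.0838).

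Acvrl1, which encodes the type I receptor ALK1, was not led by the endothelial-like class as a whole. Fibroblast-like nuclei held 44.3, 49.6 and 37.6 CPM, lymphatic endothelial-like nuclei 33.9, 33.9 and 35.0 CPM and endothelial-like nuclei 34.5, 27.8 and 28.1 CPM. No neighbours in this order differed past the threshold, although the fibroblast-like pools lay above all endothelial-like ones. Against the mean of the others, the fibroblast-like difference was 1.19 log2 units (SE 0.20, edgeR adjusted p = 1.05e-05) and the endothelial-like one 0.63 (SE 0.18, edgeR adjusted p = 0.00647). The endothelial-like call was lost without pool 1 (0.64, edgeR adjusted p = 0.0955). In the valve interstitial-like class, at 14.4, 12.9 and 10.6 CPM, the difference of -0.76 (SE 0.26, edgeR adjusted p = 0.0231) was lost without pool 1 (-0.73, edgeR adjusted p = 0.194), without pool 2 (-0.72, edgeR adjusted p = 0.162) and without the replicate block (-0.76, edgeR adjusted p = 0.0551). It shrank to -0.25 with at most 1% mitochondrial UMIs, where fewer classes entered the mean (edgeR adjusted p = 0.653). It also shrank to -0.46 without 2 shallow cardiomyocyte-like clusters (edgeR adjusted p = 0.132), and was not called without the lymphatic endothelial-like class (-0.70, edgeR adjusted p = 0.0519). Cardiomyocyte-like nuclei were lowest at 10.6, 9.52 and 0.957 CPM (-1.30, SE 0.26, edgeR adjusted p = 6.13e-05). Mesothelial-like nuclei, at 12.4, 10.7 and 9.19 CPM, were called lower (-0.81, edgeR adjusted p = 0.0199), but not without pool 1 (-0.85, edgeR adjusted p = 0.208) or pool 2 (-0.75, edgeR adjusted p = 0.132). That call was also lost without the 2 shallow clusters (-0.43, edgeR adjusted p = 0.18), without the replicate block (edgeR adjusted p = 0.0527) and without the lymphatic endothelial-like class (edgeR adjusted p = 0.0634).

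Smad6, the inhibitory Smad that acts mainly on BMP signals, was at 417, 408 and 472 CPM in endothelial-like, 349, 327 and 351 CPM in valve interstitial-like and 210.4, 235 and 245 CPM in smooth muscle-like nuclei. The groups did not overlap, but neighbours in this order did not differ past the threshold (edgeR adjusted p = 0.159 and 0.0534). Against the mean of the others the differences were 1.76 (SE 0.13, edgeR adjusted p = 1.57e-13), 1.40 (SE 0.14, edgeR adjusted p = 4.68e-10) and 0.89 log2 units (SE 0.15, edgeR adjusted p = 8.84e-06). The smooth muscle-like call was lost with the 5 largest classes alone (0.13, edgeR adjusted p = 0.226) and with at most 1% mitochondrial UMIs (0.31, edgeR adjusted p = 0.0597). In both settings fewer classes entered the mean. Cardiomyocyte-like nuclei, at 91.0, 90.7 and 82.3 CPM, were called lower (-0.46, SE 0.17, edgeR adjusted p = 0.0319). That call was lost without pool 1 (-0.43, edgeR adjusted p = 0.286), without pool 3 (-0.25, edgeR adjusted p = 0.364) and without the replicate block (-0.48, edgeR adjusted p = 0.119).

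Smad7, the inhibitory Smad of both BMP and TGF-beta signals, followed the same order. It was at 348, 343 and 354 CPM in endothelial-like, 213, 201 and 231 CPM in valve interstitial-like and 185, 162 and 215 CPM in smooth muscle-like nuclei. Here the first pair differed, by 0.70 log2 units (edgeR adjusted p = 0.00265), while the valve interstitial-like and smooth muscle-like pools overlapped. The endothelial-like class exceeded the mean of the others by 1.83 log2 units (SE 0.14, edgeR adjusted p = 1.68e-13), the valve interstitial-like class by 1.06 (SE 0.16, edgeR adjusted p = 1.43e-06) and the smooth muscle-like class by 0.97 (SE 0.16, edgeR adjusted p = 4.91e-06). Mesothelial-like nuclei, at 39.7, 37.8 and 95.6 CPM, and cardiomyocyte-like nuclei, at 74.0, 55.0 and 37.6 CPM, were called lower (-1.09, edgeR adjusted p = 7.78e-05, and -0.77, edgeR adjusted p = 0.000726). Both calls were lost without pool 1 (-0.56, edgeR adjusted p = 0.298, and -0.76, edgeR adjusted p = 0.125).

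In the lymphatic endothelial-like class both inhibitory Smads were low, Smad6 at 37.3, 37.3 and 91.1 CPM and Smad7 at 37.3, 27.2 and 70.1 CPM. The pools of this class did not overlap with those of the endothelial-like class for either gene. Against the mean of the others Smad6 was lower by -1.80 log2 units (SE 0.30, edgeR adjusted p = 1.41e-05) and Smad7 by -1.71 (SE 0.33, edgeR adjusted p = 0.000171). The Smad7 call was lost without pool 1 (-1.41, edgeR adjusted p = 0.101). The values rest on 35 and 29 UMIs in 117 nuclei. Bmp2, with 1 UMI in this class, was called lower (-2.73, edgeR adjusted p = 0.0386), but not without pool 1 (-2.10, edgeR adjusted p = 0.294) or pool 3 (-2.49, edgeR adjusted p = 0.131). Without pool 2 no Bmp2 UMI was left in the class, and the difference was not called (edgeR adjusted p = 1). DESeq2 (adjusted p = 0.0907) and edgeR with no filter on low counts (adjusted p = 0.0723) did not call it either. Over the 10 class means, Smad6 and Smad7 had a Pearson correlation of 0.967, given as a description since the classes come from the same 3 libraries.

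Levels of the ligands and receptors differed among the 6 endothelial-like clusters that could be tested, each against the mean of the other 5. Of 60 differences 30 were called, against 16.3% to 22.4% of all genes in these clusters, and 17 of these were also called in each alternative in which their cluster could be tested. The clusters led by Kcnc2, Dlgap2 and Pcdh17 could not be tested with at most 1% mitochondrial UMIs, and so were not among the clusters compared with in that setting. The clusters are named by their 2 leading genes, and no member of the pathway was used to form them. The Grid1 Col23a1 cluster (950 nuclei) was highest in Bmp6, at 2619.5, 2549 and 3042 CPM, and every pool was above all pools of the other clusters. It exceeded their mean by 2.31 log2 units (SE 0.17, edgeR adjusted p = 2.13e-17). With 1000 UMIs a nucleus, 79.8% ± 3.02 of its nuclei had a Bmp6 UMI (94.995% unthinned, at a median of 4101 UMIs). Of the 10 genes 5 were higher and 3 lower in this cluster, against 21.3% of all genes called (10.7% higher and 10.6% lower). With at most 1% mitochondrial UMIs this cluster was compared with the Cytl1 Rtl4 and Mannr Ptchd1 clusters only. In that changed comparison the Bmp6 difference was 1.21 and still called. In that setting 4 of the 8 calls were lost: Bmp4 went from 1.12 to 0.14 (edgeR adjusted p = 0.627), Smad6 from 0.61 to 0.19 (edgeR adjusted p = 0.49), Smad7 from 0.45 to -0.15 (edgeR adjusted p = 0.621) and Bmp2 from -1.46 to 0.17 (edgeR adjusted p = 0.934). The call for Bmper (-1.03) was lost without pool 1 (-0.86, edgeR adjusted p = 0.116) or pool 3 (-0.65, edgeR adjusted p = 0.191), and those for Bmp2 (-1.23, edgeR adjusted p = 0.0503) and Smad7 (0.38, edgeR adjusted p = 0.0964) without pool 2. The Smad7 call was also lost without the replicate block (0.45, edgeR adjusted p = 0.051).

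The Cytl1 Rtl4 cluster (591 nuclei) was highest in Bmp4, at 481, 444 and 622 CPM, against 266, 284 and 352 CPM in the Grid1 Col23a1 cluster. The groups did not overlap. Bmp4 exceeded the mean of the other clusters by 2.09 log2 units (SE 0.16, edgeR adjusted p = 8.57e-18), and Bmp6, at 1587, 1355 and 1924 CPM, by 1.44 (SE 0.19, edgeR adjusted p = 4.44e-09). Bmp2 was nearly missing there, at 2.12, 3.46 and 2.11 CPM (-2.75, SE 0.45, edgeR adjusted p = 1.38e-06). In this cluster 3 of the 10 genes were higher and 1 lower, against 16.3% of all genes called (10.3% higher and 5.92% lower). With at most 1% mitochondrial UMIs, where fewer clusters could be tested, the Bmp6 and Bmp2 differences were 0.44 (edgeR adjusted p = 0.28) and -1.50 (edgeR adjusted p = 0.431).

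Bmp2 had its own places. The Dlgap2 Cntnap5a cluster (246 nuclei) held 102, 78.7 and 89.9 CPM and the Pcdh17 Aplnr cluster (233 nuclei, with the capillary genes Gpihbp1 and Fabp4 among its top 10 genes) held 55.9, 43.7 and 55.1 CPM. No pool of the other 4 clusters was above 27.9 CPM. The differences were 3.23 (SE 0.25, edgeR adjusted p = 2.86e-17) and 2.33 log2 units (SE 0.28, edgeR adjusted p = 6.74e-10). At 1000 UMIs, 8.74% ± 1.11 and 2.97% ± 1.36 of their nuclei had a Bmp2 UMI (19.8% and 8.67% unthinned, at medians of 4643.5 and 4631 UMIs), against 0.146% ± 0.129 in the cardiomyocyte-like cluster of 1587 nuclei (0.823% unthinned). In the Dlgap2 Cntnap5a cluster 3 of the 10 genes were higher, against 19.3% of all genes called and 9.19% called higher. One of them, Smad6 (0.52), was not called without pool 1 (0.42, edgeR adjusted p = 0.209) or without the replicate block (edgeR adjusted p = 0.0533).

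The Pcdh17 Aplnr cluster was low in Bmp4, Bmp6 and both inhibitory Smads, with 1 of the 10 genes higher and 5 lower, against 22.4% of all genes called (14.5% higher and 7.95% lower). Bmp6 was at 247, 199.7 and 264 CPM (-1.98, SE 0.26, edgeR adjusted p = 5.38e-09) and Bmp4 at 94.2, 43.7 and 14.5 CPM (-1.78, SE 0.25, edgeR adjusted p = 5.25e-08). Smad6 was at 125, 109 and 168 CPM, below every pool of the other endothelial-like clusters, which held 341 CPM or more (-1.86, SE 0.18, edgeR adjusted p = 1.8e-13). Smad7 was lower by -1.04 log2 units (SE 0.16, edgeR adjusted p = 4.63e-07), and Bmpr1a was called lower too (-1.34).

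Bmpr1a and Acvrl1 were called in opposite directions in the Mannr Ptchd1 and Grid1 Col23a1 clusters. In the Pcdh17 Aplnr (-1.34), Dlgap2 Cntnap5a (0.65) and Cytl1 Rtl4 clusters (0.59) Bmpr1a was called and Acvrl1 was not. In the Mannr Ptchd1 cluster (239 nuclei, with the arterial genes Sema3g and Gja5 among its top 10 genes), Acvrl1 was at 98.3, 80.2 and 53.6 CPM, above every pool of the other clusters (1.66, SE 0.20, edgeR adjusted p = 8.4e-10). Bmpr1a was at 109.6, 232 and 132 CPM there, against 505, 521 and 539 CPM in the Grid1 Col23a1 cluster. It was lower in the former (-1.03, SE 0.18, edgeR adjusted p = 1.18e-05) and higher in the latter (1.02, SE 0.14, edgeR adjusted p = 7.98e-09). Acvrl1 was lower in the Grid1 Col23a1 cluster, at 13.5, 16.5 and 15.1 CPM (-1.28, SE 0.22, edgeR adjusted p = 3.74e-06), and in the Kcnc2 Fam155a cluster (413 nuclei, with Wnt9b and Wnt4 among its top 10 genes), at 16.2, 15.8 and 8.95 CPM (-1.37, SE 0.25, edgeR adjusted p = 1.4e-05). The Mannr Ptchd1 cluster had 4 of the 10 genes higher and 1 lower, against 16.4% of all genes called (8.74% higher and 7.61% lower), and the Kcnc2 Fam155a cluster 1 higher and 3 lower, against 18.7% (12.9% higher and 5.85% lower). In the latter Bmp6 was lower, at 451, 228 and 516 CPM (-1.09, SE 0.23, edgeR adjusted p = 0.00014). Its 1 higher gene, Bmper (0.96), was not called by DESeq2 (0.86, adjusted p = 0.0597), nor by edgeR without pool 1 (0.86, adjusted p = 0.0753) or pool 2 (0.69, adjusted p = 0.216), and Bmp4 (-0.78) was not called without pool 2 (-0.65, edgeR adjusted p = 0.0603). Of the 4 higher genes of the Mannr Ptchd1 cluster, Bmpr2 (0.32) lost its call in 6 of 9 alternatives, among them each pool left out (0.22 to 0.38). Smad6 (0.55) lost it without pool 1 (0.49, edgeR adjusted p = 0.134), without the replicate block (edgeR adjusted p = 0.0513) and with at most 1% mitochondrial UMIs (0.07, edgeR adjusted p = 0.885). Smad7 (0.69) lost it in the last setting (0.35, edgeR adjusted p = 0.198), where the comparison was with the Grid1 Col23a1 and Cytl1 Rtl4 clusters only.

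**Figure D3:**
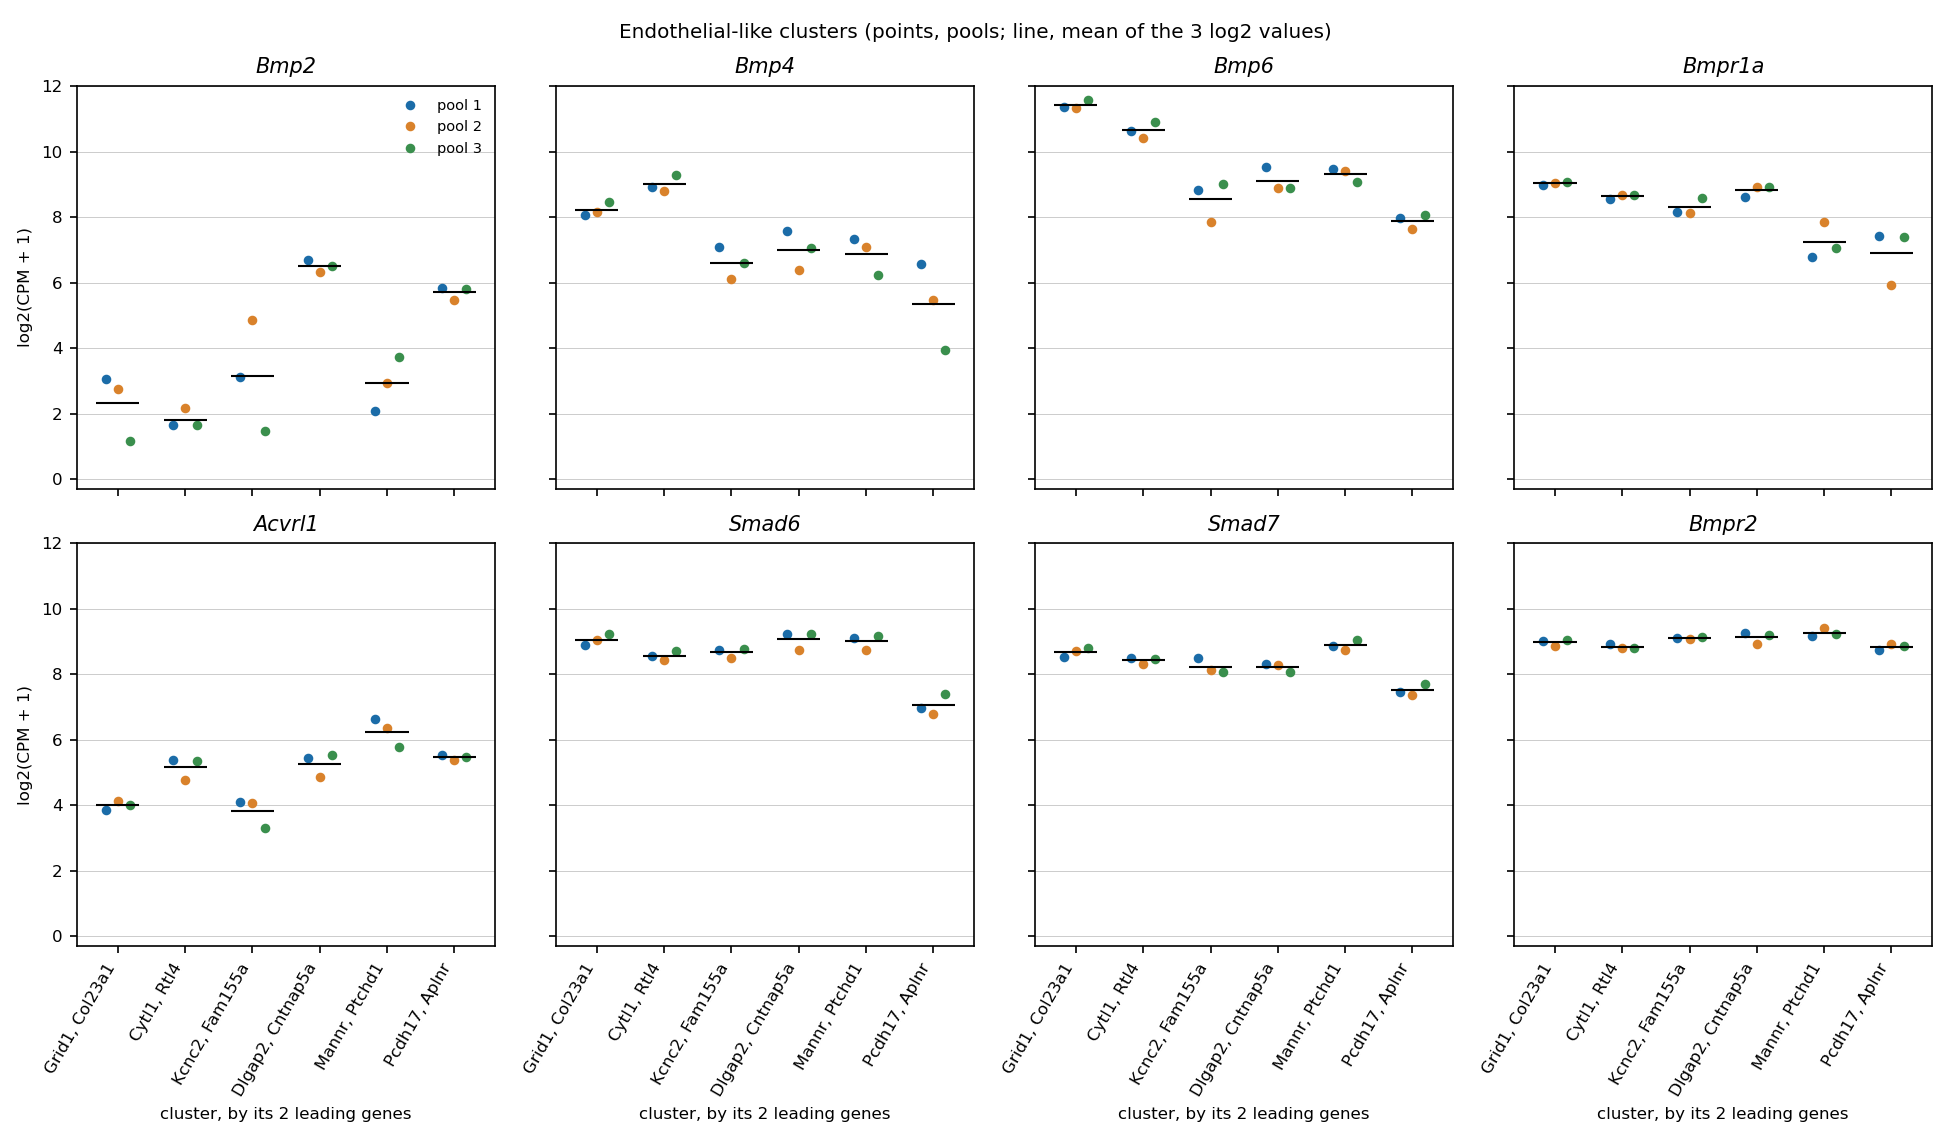
Levels of 8 genes as log2(CPM + 1) on the vertical axis in the 6 endothelial-like clusters on the horizontal axis, with 1 point per pool and a line at the mean of the 3 log2 values. Bmp6 peaks in the Grid1 Col23a1 cluster, Bmp4 in the Cytl1 Rtl4 cluster, Bmp2 in the Dlgap2 Cntnap5a cluster and Acvrl1 in the Mannr Ptchd1 cluster, while Bmpr2 is nearly level.

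The valve interstitial-like class consisted of a Rmst Pcdh15 cluster (931 nuclei) and an Abi3bp Ctnna2 cluster (555 nuclei), which differed in 5 of the 10 genes, against 8.46% of all genes called (4.64% higher in the former and 3.82% in the latter). Bmp5 was at 80.8, 66.9 and 103 CPM in the Rmst Pcdh15 cluster and at 5.71, 3.83 and 0 CPM in the other (4.32, SE 0.42, edgeR adjusted p = 5.37e-12). Bmp4 was at 28.3, 25.3 and 25.7 CPM in the former and at 68.5, 99.6 and 70.9 CPM in the latter (-1.53, SE 0.32, edgeR adjusted p = 0.000275). The pools of the 2 clusters did not overlap for either ligand, and the Bmp5 difference ran against the Bmp4 difference. At 1000 UMIs, 5.94% ± 0.566 of Rmst Pcdh15 nuclei and 0.257% ± 0.446 of Abi3bp Ctnna2 nuclei had a Bmp5 UMI (17.0% and 1.11% unthinned, at medians of 4005 and 2851 UMIs).

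Bmper was at 1484, 1220.3 and 1599 CPM in the Rmst Pcdh15 cluster and at 728, 743 and 746 CPM in the Abi3bp Ctnna2 cluster. The groups did not overlap and differed by 0.99 log2 units (SE 0.23, edgeR adjusted p = 0.00176), a difference that DESeq2 did not call (0.97, adjusted p = 0.138). Smad6 ran the other way, at 294, 253 and 313 against 474, 485 and 457 CPM (-0.70, SE 0.18, edgeR adjusted p = 0.00377). That call was lost without pool 1 (-0.71, edgeR adjusted p = 0.114), without pool 2 (-0.58, edgeR adjusted p = 0.0527) and without the replicate block (-0.68, edgeR adjusted p = 0.104). Acvrl1 was at 10.1, 8.14 and 9.26 against 24.0, 23.0 and 14.2 CPM (-1.15, SE 0.35, edgeR adjusted p = 0.0269), and was not called without pool 1 (-1.07, edgeR adjusted p = 0.405), without pool 2 (-1.02, edgeR adjusted p = 0.261) or with no filter on low counts (-1.12, edgeR adjusted p = 0.0653). Bmp6, at 532, 472 and 554 against 361, 274 and 278 CPM, was not called (edgeR adjusted p = 0.0708).

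Among the smooth muscle-like clusters, Bmper separated the Clca3a2 Pi15 cluster (1327 nuclei) from the others. Its level there was 329.9, 247 and 324 CPM, against 61.2, 50.8 and 82.3 CPM in the Mylk4 Ptprz1 cluster (1248 nuclei) and 74.9, 39.5 and 38.2 CPM in the Xkr4 Itgbl1 cluster (352 nuclei). The difference was 2.27 log2 units (SE 0.25, edgeR adjusted p = 1.16e-10), and 1 of the 10 genes was higher and 4 were lower in this cluster, against 10.9% of all genes called (5.85% higher and 5.08% lower). Of the 4 lower calls, Bmpr1a (-0.50) was lost without any one of the pools and without the replicate block (edgeR adjusted p = 0.105 to 0.146). Smad6 (-0.65) was lost without pool 1 (-0.75, edgeR adjusted p = 0.0557), without pool 2 (-0.41, edgeR adjusted p = 0.142) and without the replicate block (edgeR adjusted p = 0.0723), and Bmp6 (-1.37) without pool 3 (-1.18, edgeR adjusted p = 0.0848). Bmp4 was lower there, at 15.2, 11.4 and 16.5 CPM (-1.62, SE 0.32, edgeR adjusted p = 0.000119). Bmp4 was highest in the Xkr4 Itgbl1 cluster, at 53.7, 59.2 and 76.5 CPM (1.41, SE 0.35, edgeR adjusted p = 0.00857), where the call was lost without pool 1 (1.63, edgeR adjusted p = 0.0536) or pool 3 (1.27, edgeR adjusted p = 0.0673). Summed endothelial markers were 394 to 538 CPM in the Xkr4 Itgbl1 cluster and 193 to 305 CPM in the Clca3a2 Pi15 cluster, and their part in the Bmp4 levels was not tested. Bmpr1a was at 772, 845 and 831 CPM in the Mylk4 Ptprz1 cluster (0.64, SE 0.15, edgeR adjusted p = 0.00295), a call lost without pool 1 (0.59, edgeR adjusted p = 0.118) and without the replicate block (0.63, edgeR adjusted p = 0.0514).

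In the cardiomyocyte-like class Bmp2 was highest in a small cluster. The Ryr3 Cpne5 cluster (200 nuclei, with the atrial and conduction factor gene Tbx5 among its top 10 genes) held 103, 133 and 126 CPM, while the Igfbp2 Mb cluster (756 nuclei) held 11.6, 13.6 and 6.76 CPM and the D830005E20Rik Fgf13 cluster (1587 nuclei) 1.54, 1.67 and 1.14 CPM. All its pools were far above those of the other clusters (4.65, SE 0.28, edgeR adjusted p = 4.84e-22), and 4 of the 10 genes were higher there, against 10.4% of all genes called (6.38% higher and 4.01% lower). At 1000 UMIs, 7.54% ± 2.49 of its nuclei had a Bmp2 UMI (21.0% unthinned, at a median of 5146 UMIs). Smad6 was higher as well, at 205, 182 and 252 CPM (1.07, SE 0.18, edgeR adjusted p = 8.91e-06). Bmp5 was at 59.0, 31.5 and 51.2 CPM and called higher (1.72, SE 0.32, edgeR adjusted p = 4.81e-05), but not without pool 1 (1.11, edgeR adjusted p = 0.214). Smad7, at 125, 164 and 102 CPM (0.96, edgeR adjusted p = 0.000321), lost its call without pool 2 (0.68, edgeR adjusted p = 0.0947).

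The cardiomyocyte-like levels of Bmp4, Bmp6 and Acvrl1 came mostly from a shallow cluster. In the Igfbp2 Mb cluster (756 nuclei, of which 416, 293 and 47 were in pools 1, 2 and 3, with a median of 2904.5 UMIs), Acvrl1 was at 38.8, 31.1 and 20.3 CPM, against 1.80, 1.00 and 0 CPM in the D830005E20Rik Fgf13 cluster. Bmp4 was at 49.8, 48.5 and 74.3 CPM against 1.80, 3.33 and 2.66 CPM, and Bmp6 at 63.4, 71.2 and 54.1 CPM against 5.14, 4.67 and 1.90 CPM. None of these pools overlapped, and 4 of the 10 genes were higher and 3 lower in the Igfbp2 Mb cluster, against 56.2% of all genes called (31.1% higher and 25.0% lower). The D830005E20Rik Fgf13 cluster had 3 higher and 5 lower, against 52.7% (28.9% higher and 23.7% lower). With at most 1% mitochondrial UMIs the Igfbp2 Mb cluster could not be tested, so the comparison there was with the Ryr3 Cpne5 cluster alone. In that changed comparison none of the 3 higher calls of the D830005E20Rik Fgf13 cluster held. Bmp5 went from 0.72 to -0.97 and was called lower (edgeR adjusted p = 0.0414). Bmpr2 went from 0.34 to -0.11 (edgeR adjusted p = 0.728) and Bmpr1a from 0.81 to 0.22 (edgeR adjusted p = 0.373). The lower calls of Bmp4 (-0.41, edgeR adjusted p = 0.857) and Bmp6 (-1.67, edgeR adjusted p = 0.31) were lost there too. The Bmp5 call was also lost without any one of the 3 pools, and the Bmpr2 call without pool 2 or pool 3. The summed level of 10 endothelial markers moved with them, at 784, 606 and 682 CPM against 72.8, 74.6 and 31.1 CPM, with none of the 10 at 0 in either cluster, and was 7213 to 7630 CPM in the endothelial-like class. Its part in the 3 genes' levels was not tested. Without this cluster and a second shallow one of 69 nuclei, the cardiomyocyte-like class held 2.51, 3.86 and 3.04 CPM of Bmp4, 6.29, 6.84 and 4.05 CPM of Bmp6 and 1.68, 0.892 and 0 CPM of Acvrl1, while Bmpr1a was at 728, 855 and 795 CPM.

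**Figure D4:**
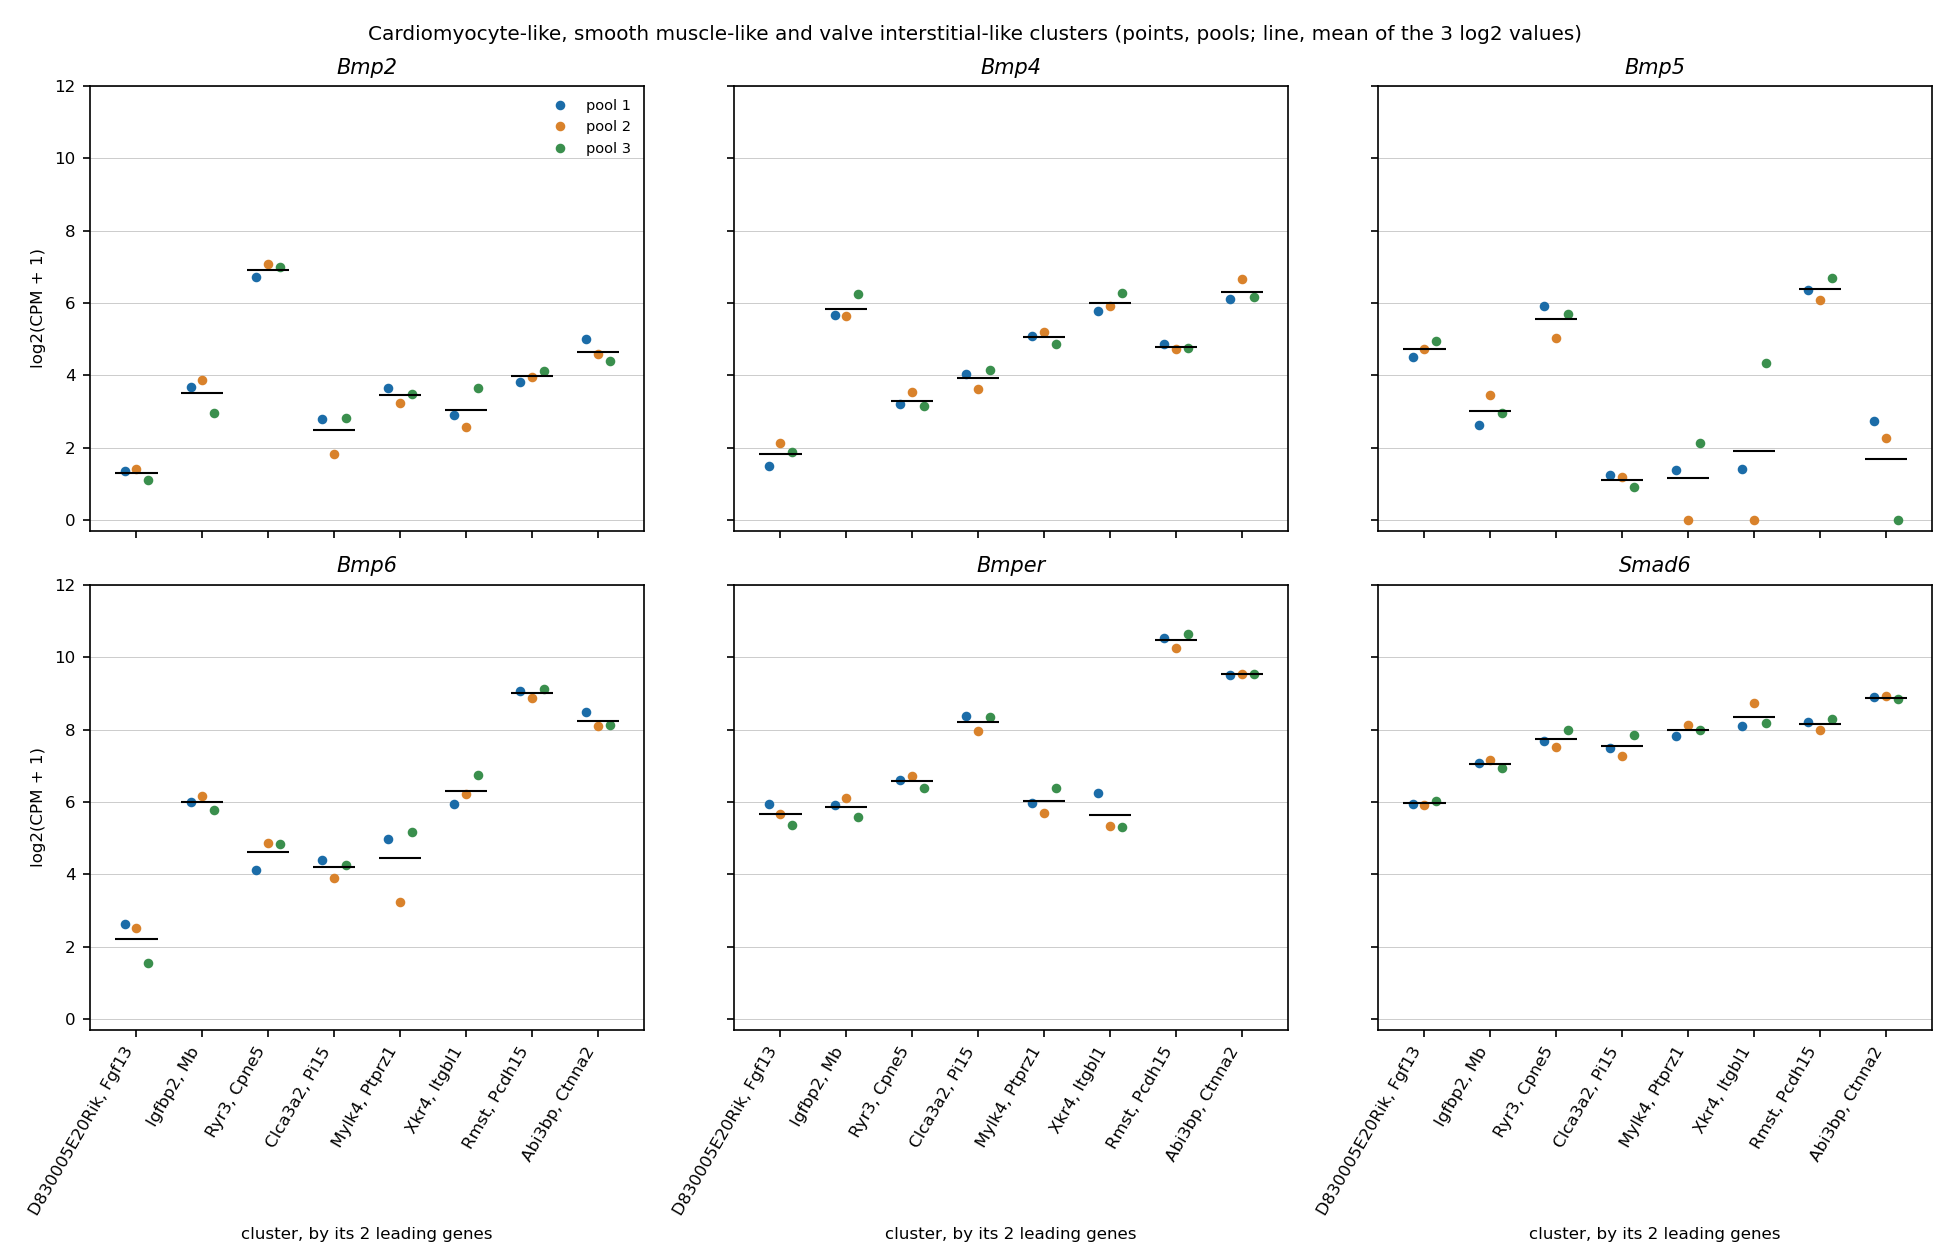
Levels of 6 genes as log2(CPM + 1) on the vertical axis in 3 cardiomyocyte-like, 3 smooth muscle-like and 2 valve interstitial-like clusters on the horizontal axis, with 1 point per pool and a line at the mean of the 3 log2 values. Bmp2 stands out in the Ryr3 Cpne5 cluster, Bmp5 in the Rmst Pcdh15 cluster, and Bmper in the Rmst Pcdh15, Abi3bp Ctnna2 and Clca3a2 Pi15 clusters.

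The rest of the pathway was followed with a list of 61 other ligands, receptors, antagonists, Smads, feedback genes and targets, of which 49 had enough counts to be tested. In the endothelial-like class 21 of the 49 were higher and 4 lower, or 51.0% called against 29.4% of all genes (22.7% higher and 6.69% lower). Among receptors 3 of 8 were higher and 2 lower, led by Eng, the co-receptor of Acvrl1, at 692 ± 52.6 CPM (SD, n = 3; 3.22, SE 0.14, edgeR adjusted p = 4.65e-20), and Acvr1, another type I receptor, at 541 ± 66.3 CPM (1.72, edgeR adjusted p = 2.51e-14). The type I receptor gene Bmpr1b was lower, at 5.41 ± 3.56 CPM (-2.83, edgeR adjusted p = 4.22e-07). Of 10 targets 6 were higher and 1 lower, including Tmem100, a target of endothelial BMP signals, at 44.3 ± 3.35 CPM (3.41, edgeR adjusted p = 1.78e-14), and Id2 (1.70, edgeR adjusted p = 1.8e-13). Of 7 intracellular feedback genes 4 were higher, among them Smurf1, which marks receptors and Smads for breakdown (0.90, edgeR adjusted p = 1.82e-08).

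In the valve interstitial-like class 24 of the 49 were higher and 4 lower, or 57.1% called against 27.7% of all genes (20.4% higher and 7.33% lower). Of 14 extracellular antagonists and modulators 6 were higher and 2 lower. Fst, which binds activins and BMPs, was at 31.7 ± 7.76 CPM (3.69, SE 0.38, edgeR adjusted p = 9.68e-10), and Vwc2, a chordin-like antagonist, at 75.2 ± 15.2 CPM (3.47, edgeR adjusted p = 6.17e-11). Msx1, a BMP target and transcription factor of cushion mesenchyme, was at 63.6 ± 1.63 CPM against a mean of 6.60 CPM over the other classes (3.51, SE 0.20, edgeR adjusted p = 1.57e-16). Among the ligands, Inhba, an activin subunit, was higher, at 89.3 ± 15.4 CPM (1.49, edgeR adjusted p = 9.68e-09). Of 7 feedback genes 5 were higher, led by Pmepa1, a limiter of TGF-beta signals, at 486 ± 18.7 CPM (1.41, edgeR adjusted p = 3.16e-11).

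Smooth muscle-like nuclei had 19 of the 49 genes higher and 3 lower, or 44.9% called against 34.3% of all genes (25.8% higher and 8.55% lower). Bmpr1b was at 157 ± 19.1 CPM (2.77, SE 0.20, edgeR adjusted p = 1.08e-13), and the antagonist gene Sost at 150.3 ± 37.2 CPM (2.51, edgeR adjusted p = 5.44e-13). Cardiomyocyte-like nuclei had 7 higher and 18 lower, or 51.0% called against 41.3% of all genes (29.2% higher and 12.1% lower). The 5 targets called were lower, among them Id3 (-1.23, edgeR adjusted p = 8.31e-06) and Id1 (-1.10, edgeR adjusted p = 0.00199). The ligand gene Bmp7 was higher, at 12.2 ± 3.45 CPM (4.23, SE 0.48, edgeR adjusted p = 7.29e-09). In fibroblast-like nuclei 17 were higher and 1 lower, or 36.7% called against 23.4% of all genes (18.3% higher and 5.09% lower), with Kcp, a chordin-like enhancer of BMP signals, at 47.1 ± 6.93 CPM (3.36, SE 0.25, edgeR adjusted p = 5.45e-13).

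The genes whose class means ran most like those of each member, by Pearson correlation of log2(CPM + 1) over 10 classes among 13378 genes, are given as a description, since all points share the same 3 libraries. For Bmp4 these were Samd12 (0.971), the estrogen receptor gene Esr1 (0.951) and Bace2 (0.947). For Bmp5 they were Tbx3os1 (0.918) and its neighbour Tbx3 (0.912), a transcription factor gene of the conduction system, and for Bmp6 they were Stard13 (0.964), Gm52229 (0.958) and Ddah1 (0.951), an enzyme that breaks down inhibitors of nitric oxide synthesis. For Bmper they were Socs1 (0.962), Ptchd4 (0.961) and Fndc4 (0.948).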

How the data were processed

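RNA in nuclei of 3 pools was read out by 10x Multiome. Per the file headers, Cell Ranger 7.1.0 made the deposited tables, whose values are unnormalized UMI counts. The submitters' processing notes list Cell Ranger 7.0.1 and 7.1.0 and the build GRCm39. Whether intronic reads were counted is not given in the sources used here. Chromatin data are not analysed here.

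Pools held 49918251, 25341316 and 21254247 UMIs in 10580, 5949 and 4611 deposited nuclei, of which 28.6%, 41.8% and 14.1% were over 5% mitochondrial UMIs. Scrublet's own threshold marked 0 nuclei in each pool, so the highest scores were removed at 0.8% per 1000 deposited nuclei (598, 155 and 138). Nuclei were clustered with scanpy 1.11.5 and leidenalg 0.10.2 (2000 variable genes chosen within pools, 30 components, 15 neighbours, resolution 1) without the pathway genes. A cluster was named from at least 3 markers found in at least 10% of its nuclei and 2-fold over the others (pseudocount 5 CPM); 26 of 29 were named. These names are rebuilt and may differ from the study's own.

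Counts were summed per pool and class (30 libraries) and tested with edgeR 4.0.16 in R 4.3.3 (TMM, filterByExpr, a term for pool, Benjamini-Hochberg adjustment over all 13974 genes, or 12733 for clusters, two-sided). The pool term pairs the classes of the same library, since they come from the same animals. DESeq2 1.42.0, other filters and scalings, and each pool left out were alternatives. Shares come from nuclei thinned to 1000 UMIs. Members and lists were chosen with earlier results of these data known. Named other pathway genes are up to 3 per role and class with the largest difference among those called with the same sign in all 3 pools. UMI counts of 69955361 in all set the precision; shares cover counting error only within a pool. Scripts were tested on simulated data.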

Additional observations from a re-analysis of the deposited data

How the results depend on the processing

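Of the 44 class differences called for the 10 genes, the number still called was 42 with DESeq2, 43 with edgeR's RLE factors, 43 with no filter on low counts, 42 with doublets kept, 43 at a clustering resolution of 0.5, 39 without the replicate block (pool term), 35 of 39 without the lymphatic endothelial-like class, and 30, 37 and 39 without pools 1, 2 and 3; none of them changed sign. With at most 1% mitochondrial UMIs 25 of 29 testable differences were still called, and with the 5 largest classes alone (an alternative added after seeing the data) 27 of 29. Leaving out 1 pool gave 6 to 8 called members in the endothelial-like class (8 with all pools), 6 to 7 in the valve interstitial-like class (7), 4 to 5 in the smooth muscle-like class (4), 5 to 8 in the cardiomyocyte-like class (8) and 2 in the fibroblast-like class. With the 5 largest classes alone 7 members were called in the smooth muscle-like class (2 higher, 5 lower) and 8 in the fibroblast-like class (2 higher, 6 lower), and with at most 1% mitochondrial UMIs 5 in the fibroblast-like class (3 higher, 2 lower). The lower Bmp6 of smooth muscle-like nuclei (-1.94, edgeR adjusted p = 0.0747) was called by DESeq2 (-1.97, adjusted p = 1.36e-05) and by edgeR without the replicate block (adjusted p = 0.0476), with no filter on low counts, without pool 3, with at least 2000 UMIs, with at most 1% mitochondrial UMIs, with doublets kept, without the erythroid-like class and with the 5 largest classes alone (-2.77 to -1.88 over these).

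The other pathway genes called in the cardiomyocyte-like class rose from 25 to 39 with at most 1% mitochondrial UMIs and to 43 with the 5 largest classes alone. Within the endothelial-like class the calls among clusters went from 30 to 11 with at most 1% mitochondrial UMIs, where fewer clusters could be tested. In that setting the D830005E20Rik Fgf13 cluster was compared with the Ryr3 Cpne5 cluster alone. Its Bmp5 difference then went from 0.72 to -0.97 and was called in the opposite direction (edgeR adjusted p = 0.0414). Bmpr1a, Bmpr2, Bmp4 and Bmp6 of the D830005E20Rik Fgf13 cluster lost their calls. Calls among the valve interstitial-like clusters were 3 to 5 when 1 pool was left out (5 with all). Among the smooth muscle-like clusters they were 5 in each case (10 with all) and 6 without the replicate block. With at most 1% mitochondrial UMIs the nuclei and the classes or clusters compared changed at once, and the part of each was not tested. The cause of the other shifts was not tested either.

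The share of called genes that were higher, over the 5 largest classes, was 70.8% to 78.2%, against 62.8% to 78.3% with RLE factors, 47.1% to 68.7% with DESeq2, 53.0% to 59.9% without the erythroid-like class and 46.2% to 54.2% with the 5 largest classes alone. All 50 shares of nuclei moved by more than 1 SD without thinning; 45 of 50 stayed within 1 SD with at least 2000 UMIs per nucleus, and 38 of 50 with doublets kept. Depth limits Bmp2 and Bmp5 most, and the pericyte-like, lymphatic endothelial-like and erythroid-like classes, where a few UMIs carry a value.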

Other observations

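A class name was not given to 3 clusters, which hold 1229 nuclei or 9.32% of those analysed. The Neil3 Diaph3 cluster (561 nuclei), whose leading genes belong to mitosis, had 146, 212 and 171 CPM of Bmper and 232, 189 and 278 CPM of Smad6 in pools 1, 2 and 3. The Erc2 Lrrc4c cluster (473 nuclei), which holds 5 cardiomyocyte markers and neuronal genes among its leading genes, had 827, 1039 and 939 CPM of Bmpr1a and 31.9, 40.9 and 34.8 CPM of Bmp5. The Gm10754 Kcnj3 cluster (195 nuclei, of which 145 were in pool 3) had a median of 14107 UMIs and 81.5, 377 and 239 CPM of Bmp6.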
